A study of Mus musculus with 8 samples.

Results

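Nnt and 9 further genes of the mitochondrial NADPH supply and its use (Idh2, Me2, Me3, Mthfd2, Nadk2, Txnrd2, Txn2, Prdx3 and Gsr) were examined in intestinal epithelial cells (IECs), 10 genes of the 25239 listed in the deposited count table. Nnt was chosen by its difference between CD1d-KO and WT in these same samples, so its values are given as a description without a test. The other 9 were listed for their roles, with earlier results of these data known. All 10 were found in the table by symbol and all 10 passed the filter on low counts.

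NADPH supplies the reducing power that keeps thiols and peroxides in check, and mitochondria make their own because the molecule does not cross the inner membrane. Nnt, the nicotinamide nucleotide transhydrogenase of that membrane, makes NADPH from NADH with the energy of the proton gradient. Idh2, Me2 and Me3, and Mthfd2 are dehydrogenases that make NADPH or NADH in the matrix, and Nadk2 makes the NADP from which mitochondrial NADPH is formed. Gsr restores glutathione with NADPH, and Txnrd2, Txn2 and Prdx3 form a chain that carries electrons from NADPH to peroxides. Nnt is also known among mouse geneticists because C57BL/6J mice carry an allele that lacks a run of internal exons and yields no functional protein, whereas C57BL/6N mice and most other strains carry an intact gene.

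RNA was sequenced from IECs of the proximal small intestine of untreated mice, sorted from crypts by EpCAM on their surface, leaving out those with CD45, CD31 or Ter119, with 150000 cells a sample. The WT mice are labelled C57BL/6Jax, and the CD1d-KO mice are labelled as lacking CD1d1 and CD1d2, the lipid-presenting molecules on which NKT cells depend, so that both the molecule and the NKT cells were missing from the CD1d-KO group. Adult mice of both sexes, matched for age and sex, are described in the study's methods, while the labels give no age, sex, litter or backcross for a sample. The paper states among its limitations that its mice were not littermates. Each genotype had 4 samples, taken from separate mice by the study's methods, so the replicates are animals.

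Library totals ranged from 23610266 to 31629435 counts. Raw counts of the targeted Cd1d1 were 0 to 8 in CD1d-KO and 50 to 94 in WT. Y-linked genes were counted in CD1d-KO 1 and CD1d-KO 2 (6235 and 7293 raw counts over 4 genes) and summed to 0 or 1 in each of the other 6 samples. By these counts the sequenced samples were not matched for sex between genotypes, although the methods describe matching. The 7 epithelial markers summed to 311164 to 337300 normalised counts in CD1d-KO and 302676 to 338546 in WT, and 0 of them was called. The 9 stomach markers summed to 146.6 to 671.1 in CD1d-KO and 1564 to 12631 in WT, with 6 of 9 called, and none of them was at 0 in all samples. Most of the stomach sum in CD1d-KO 1, CD1d-KO 2 and CD1d-KO 3 was Muc6, which ranged from 139 to 222 in CD1d-KO and from 351 to 1304 in WT. The 10 leukocyte markers summed to 775.1 to 938.8 in CD1d-KO and 947.5 to 1517 in WT, with 4 of 10 called, most of the sum being Itgam, and the part of leukocyte RNA in the results was not tested. Endothelial markers (30.3 to 40.32 in CD1d-KO, 15.72 to 39.12 in WT), erythroid markers (39.1 to 55.24 and 24.24 to 44.18, with Hba-a1 and Hbb-bt at 0) and stromal markers (0 to 5.865 and 1.223 to 14.73) were low, and 0 genes of these 3 lists were called. In such bulk samples fewer cells of a type and less RNA per cell cannot be told apart.

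Nnt was expressed in every sample, and CD1d-KO IECs held 2.56 times the WT level. Nnt lies on the minus strand of chromosome 13 (mm10, 119334317 to 119409257), and its 17 merged exons in the annotation used for counting sum to 4860 bases. Its normalised read counts, which are counts divided by a size factor for each library, were 4890, 4979, 4437 and 4432 in CD1d-KO samples numbered 1 to 4, against 1902, 1756, 1792 and 1861 in the WT samples in the same order. The raw counts behind them were 5469, 5228, 4539 and 4616 in CD1d-KO, against 1937, 1676, 1848 and 1522 in WT. All CD1d-KO samples stood far above all WT samples, and the lowest CD1d-KO value was 2.33 times the highest WT value. The 2 CD1d-KO samples with Y-linked counts were the higher ones, and CD1d-KO 3 and 4 lay almost level with each other.

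The normalised counts of Nnt averaged 4684 ± 291 in CD1d-KO, against 1828 ± 65.7 in WT (SD, n = 4). This gave a log2 fold change of 1.36 ± 0.07 (SE, DESeq2), with a 95% interval of 1.23 to 1.49 or 2.34-fold to 2.8-fold. The WT mean was 39% of the CD1d-KO mean, so Nnt transcripts were reduced in WT relative to CD1d-KO but were well detected in both. Samples of a genotype lay close together, with a coefficient of variation of 6.21% in CD1d-KO and 3.59% in WT. Nnt was not the gene of largest change, since among called genes averaging at least 50 normalised counts 7 had a larger increase and 32 had a change at least as large in either direction.

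The stomach markers separated the genotypes too, with sums of 146.6 to 671.1 in CD1d-KO and 1564 to 12631 in WT. Stomach content and genotype therefore cannot be told apart here, and the part of stomach RNA in the Nnt difference was not tested. With the mean level of these markers as a covariate the log2 fold change of Nnt was 1.25 ± 0.13 (SE), and without the samples that carry Y-linked counts it was 1.28 ± 0.08. The counts are per gene and do not show which exons the reads came from, and the mm10 assembly represents C57BL/6J. Reads from an exon absent from the annotation could not be counted, so the Nnt values cover its annotated exons only. Which Nnt allele the mice of either genotype carried was not tested.

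**Figure D1:**
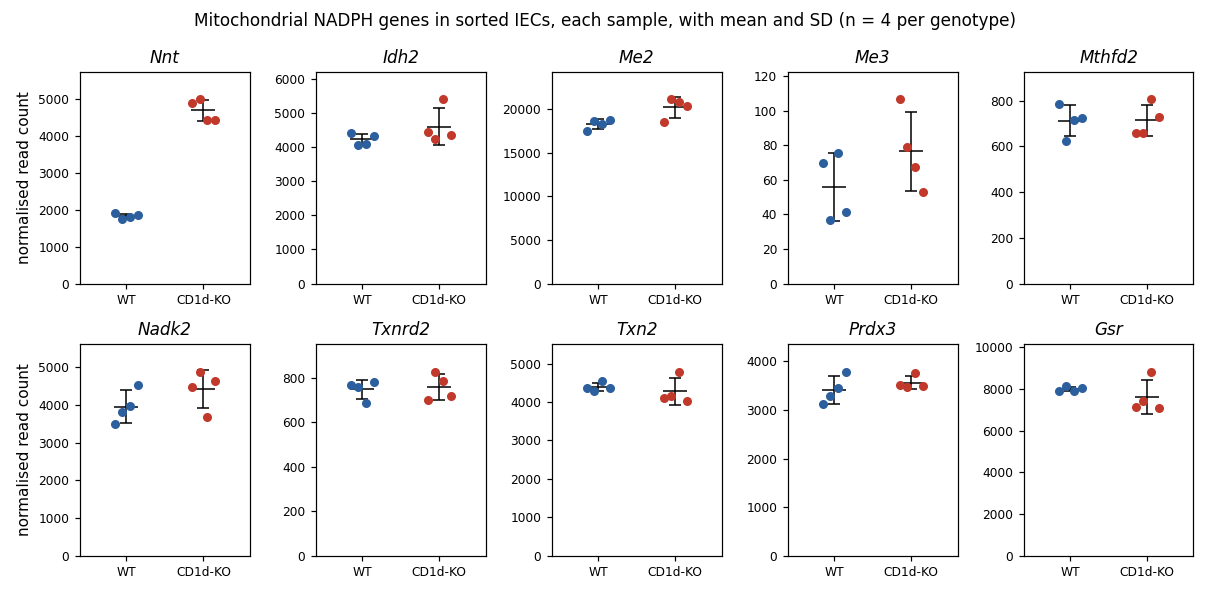
Normalised read counts (vertical axes, starting at 0) of the 10 genes in the 4 WT (blue) and 4 CD1d-KO (red) samples, 1 panel a gene, with black bars for the mean and SD. The genotypes are apart for Nnt, at 1756 to 1902 in WT and 4432 to 4979 in CD1d-KO, and overlap for each of the other 9 genes.

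None of the other 9 genes passed the test across all genes. Across all genes DESeq2 called 622 of 15446 tested genes at an adjusted p under 0.05, or 4.03% of them, and 0 of the 9 genes was called, which is near that share and no result about these genes. Their DESeq2 adjusted p-values ranged from 0.186 for Me2 to 0.997 for Mthfd2, and 1 of the 9, Me2, had an unadjusted p under 0.05. The quasi-likelihood test of edgeR also called 0 of them. The genotypes overlapped in all 9 genes, where 9.61% of all tested genes did not overlap. The log2 fold changes were above 0 in 7 genes and below 0 in 2, with a median of 0.06 against 0.001 for all tested genes. For the 8 genes other than Me3 the 95% intervals of the fit with genotype alone lay between -0.22 and 0.36 on the log2 scale. These limits hold for that fit only, since Nadk2 was at 0.37 ± 0.19 (SE) with the stomach covariate.

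**Figure D2:**
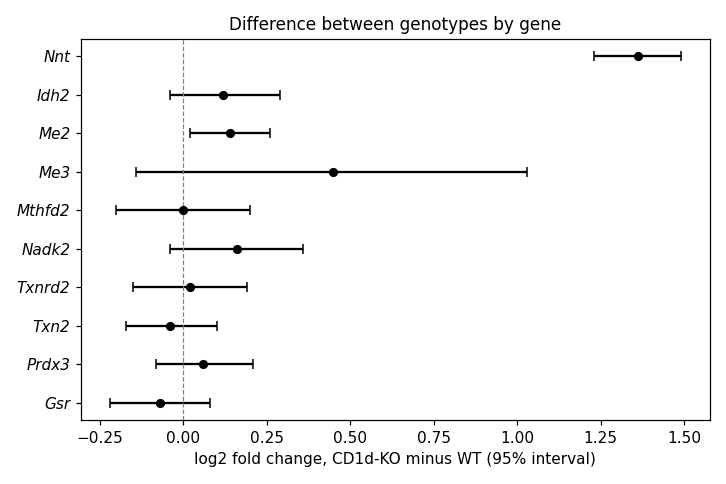
Log2 fold change of each gene, CD1d-KO minus WT (horizontal axis), with its 95% interval from DESeq2 and a dashed line at 0. Nnt is at 1.36, and the intervals of the other genes include 0 except that of Me2, which runs from 0.02 to 0.26.

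Among the matrix dehydrogenases, Idh2 and Me2 had higher levels per length than Me3 and Mthfd2 in both genotypes. Idh2, the NADP-dependent isocitrate dehydrogenase of the matrix (chromosome 7, 80094847 to 80115350), had normalised counts of 4445, 4221, 5392 and 4340 in CD1d-KO, against 4400, 4066, 4081 and 4336 in WT. CD1d-KO 3 was high and the other 7 samples lay together, and the log2 fold change was 0.12 ± 0.08 (SE; adjusted p = 0.536, DESeq2). Me2, a malic enzyme of the matrix that mainly uses NAD (chromosome 18, 73764954 to 73815438), had 18491, 21104, 20788 and 20400 in CD1d-KO, against 17534, 18689, 18322 and 18753 in WT. Here 3 CD1d-KO samples were above all WT samples, and CD1d-KO 1 lay among them. The log2 fold change of Me2 was 0.14 ± 0.06 (SE; adjusted p = 0.186, DESeq2), and without CD1d-KO 1 it was 0.18 with an adjusted p of 0.0346.

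Me3, the malic enzyme of the matrix that uses NADP (chromosome 7, 89632818 to 89854359), was by far the lowest of the 10 genes. Its normalised counts were 106.4, 79.05, 67.45 and 52.8 in CD1d-KO, against 69.7, 36.68, 75.62 and 41.57 in WT. The values were scattered and the genotypes overlapped, and the log2 fold change of 0.45 ± 0.30 (SE; adjusted p = 0.518, DESeq2) had a 95% interval of -0.14 to 1.03. The spread of Me3 between samples, with SDs of 22.7 around 76.42 in CD1d-KO and 19.6 around 55.89 in WT, exceeded the counting error, which was 17.1% of its lowest raw count.

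Mthfd2, the methylene-tetrahydrofolate dehydrogenase of the mitochondrial folate cycle (chromosome 6, 83305704 to 83317604), ranged from 658.9 to 804.5 normalised counts in CD1d-KO and from 621.5 to 786.4 in WT. Its means of 713 ± 69.5 and 711.6 ± 68.1 (SD, n = 4) were nearly the same, with a log2 fold change of 0.00 ± 0.10 (SE; adjusted p = 0.997, DESeq2). Nadk2, the mitochondrial NAD kinase (chromosome 15, 9071260 to 9110496), ranged from 3684 to 4874 in CD1d-KO and from 3502 to 4528 in WT. Its log2 fold change was 0.16 ± 0.10 (SE; adjusted p = 0.492, DESeq2), with CD1d-KO 3 low and WT 4 high within their genotypes. The count of Nadk2 is uncertain, since a stretch of 556 bases of its transcript had a copy of 99.3% identity elsewhere in the genome, whereas the other 9 genes had 0 copies of at least 200 bases and 90% identity.

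The genes that spend mitochondrial NADPH on peroxides did not differ beyond the spread between samples. Txnrd2, the mitochondrial thioredoxin reductase (chromosome 16, 18426417 to 18479073), had means of 759.1 ± 58.9 in CD1d-KO and 748.9 ± 42.9 in WT (SD, n = 4; log2 fold change 0.02 ± 0.09, SE; adjusted p = 0.963, DESeq2). Txn2, the mitochondrial thioredoxin (chromosome 15, 77915051 to 77928994), had means of 4274 ± 347 and 4387 ± 106 (-0.04 ± 0.07; adjusted p = 0.882). Prdx3, the peroxiredoxin of the matrix (chromosome 19, 60864066 to 60874538), had normalised counts of 3513, 3481, 3772 and 3498 in CD1d-KO, against 3120, 3286, 3458 and 3789 in WT. WT 4 was the highest and WT 1 the lowest sample of all, and the log2 fold change of Prdx3 was 0.06 ± 0.07 (SE; adjusted p = 0.785, DESeq2).

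Gsr, the glutathione reductase shared by cytosol and mitochondria (chromosome 8, 33653238 to 33698162), had normalised counts of 7135, 7449, 8836 and 7074 in CD1d-KO, against 7920, 8156, 7933 and 8043 in WT. CD1d-KO samples 1, 2 and 4 were below all WT samples and CD1d-KO 3 was above them. The log2 fold change was -0.07 ± 0.08 (SE; adjusted p = 0.761, DESeq2), and without CD1d-KO 3 it was -0.15 with an adjusted p of 0.0497. CD1d-KO 3 was the highest CD1d-KO sample in Idh2, Mthfd2, Txn2, Prdx3 and Gsr and the lowest in Nadk2.

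Levels were compared between genes per length, as TPM values, which are counts divided by the gene length in the table and scaled to the same sum in every sample. In WT the order was Txn2 (285), Gsr (249), Idh2 (206), Me2 (200), Prdx3 (196), Nadk2 (80.8), Txnrd2 (32.7), Nnt (31.3), Mthfd2 (28.6) and Me3 (1.06), each a mean TPM over 4 samples. In CD1d-KO it was Txn2 (277), Gsr (237), Idh2 (224), Me2 (220), Prdx3 (205), Nadk2 (90.5), Nnt (80.3), Txnrd2 (33.1), Mthfd2 (28.6) and Me3 (1.46). The order was thus the same in both genotypes apart from Nnt, which passed Txnrd2.

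Nnt was at 31.3 ± 1.36 TPM (SD, n = 4) in WT, where its samples (29.8 to 32.8) overlapped those of Txnrd2 (29.9 to 34.3) and Mthfd2 (24.7 to 31.9) and lay below those of Nadk2 (72.3 to 92.9). In CD1d-KO it was at 80.3 ± 7.4 TPM, where its samples (73 to 87.6) overlapped those of Nadk2 (72.5 to 103) and lay above those of Txnrd2 (31 to 37.2). Nnt therefore took its place beside different neighbours in the 2 genotypes. Among the 5 most abundant genes, Txn2, Gsr, Idh2, Me2 and Prdx3, each overlapped with the next in CD1d-KO, whereas in WT Txn2 and Gsr each stood apart while Idh2, Me2 and Prdx3 overlapped. Among all tested genes, 63.5% had a lower mean TPM than Nnt in WT and 83.9% in CD1d-KO.

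**Figure D3:**
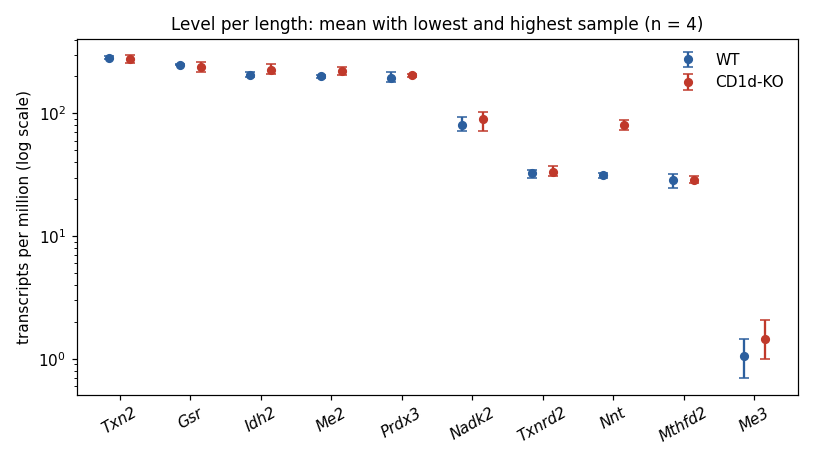
Mean TPM (vertical axis, log scale) of the 10 genes in WT (blue) and CD1d-KO (red), ordered by their WT level, with bars from the lowest to the highest of 4 samples. Nnt moves from 31.3 TPM, beside Txnrd2 and Mthfd2, to 80.3 TPM, beside Nadk2.

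Given that position along the chromosome was not used to choose Nnt, the genes around it were examined. Of 38 genes listed within 5 Mb of Nnt, 21 were tested and 1 was called (4.76%), and the genotypes did not overlap in 2 (9.52%). Their log2 fold changes were above 0 in 12 and below 0 in 9, with a median of 0.00, and 3 had an unadjusted p under 0.05. Both shares lay near those of all tested genes, and on the whole of chromosome 13, without Nnt, 20 of 596 tested genes were called (3.36%). The called neighbour was Tmem267, which encodes a transmembrane protein, 78.8 kb from Nnt (119488086 to 119610459). Its normalised counts were 375.5, 282.9, 266.9 and 401.3 in CD1d-KO, against 702, 464.3, 512.9 and 634.5 in WT. All CD1d-KO samples were below all WT samples, opposite in direction to Nnt, with a log2 fold change of -0.80 ± 0.17 (SE; adjusted p = 0.000137, DESeq2). With the stomach covariate it was -0.58 with an adjusted p of 0.594, so that 0 neighbours were called. The span of Tmem267 overlaps that of 3110070M22Rik, and strand was not used in counting, so its count is uncertain.

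The nearest tested genes on either side were not called. Paip1, a partner of the poly(A)-binding protein 19.3 kb from Nnt, changed by 0.15 ± 0.07 on the log2 scale (SE; adjusted p = 0.299, DESeq2), and 4833420G17Rik, 53.5 kb from it, by 0.10 ± 0.14 (adjusted p = 0.838). On the other side the next tested genes were Gm10732 at 676 kb (0.60 ± 0.35; adjusted p = 0.432) and Mrps30, which encodes a subunit of the mitochondrial ribosome, at 947 kb (0.16 ± 0.06; adjusted p = 0.133). None of these 4 estimates approached the size of the Nnt difference. The 95% interval of Gm10732, a gene of few counts, ran from -0.09 to 1.28 and overlapped that of Nnt (1.23 to 1.49). Mrps30 was the second gene without overlap, at 1769 ± 46.3 in CD1d-KO and 1588 ± 62.2 in WT (SD, n = 4).

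**Figure D4:**
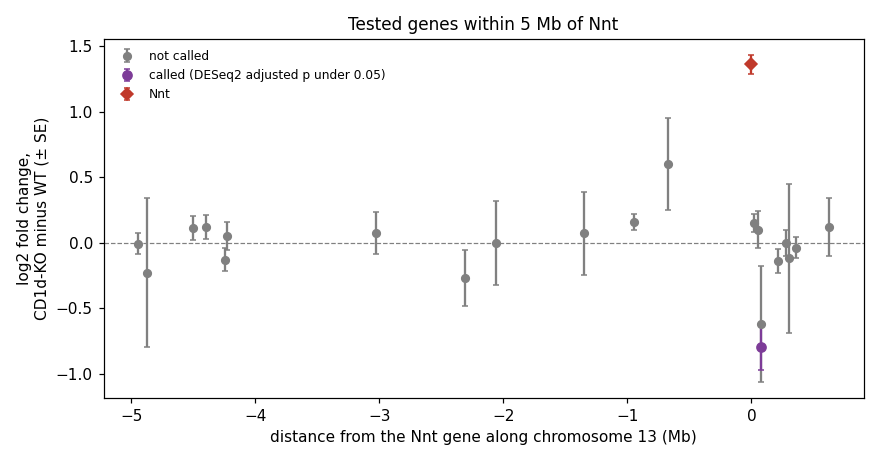
Log2 fold change (CD1d-KO minus WT, with SE bars) of the 21 tested genes within 5 Mb of Nnt against the distance from Nnt in Mb, with Nnt as a red diamond at 0. Nnt is at 1.36, Tmem267 (purple) is at -0.80, and the other 20 genes were not called.

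To place Nnt among related pathways, 8 lists of other genes were drawn up, and the 7 with tested genes were read from the same fit. Of 85 tested genes on these lists 7 were called (8.24%), 5 of them higher and 2 lower in CD1d-KO, and the genotypes did not overlap in 9 (10.6%), beside 4.03% and 9.61% of all tested genes. In edgeR 1 of the 85 was called, where 299 of 19088 genes were called in all. The median log2 fold change was 0.02, with 48 genes above 0 and 37 below. The 13 subunits encoded by mitochondrial DNA were not analysed here.

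Of 13 genes of cytosolic NADPH production 1 was called, with a median of 0.01. Idh1, the cytosolic counterpart of Idh2, had normalised counts of 6257, 7031, 8466 and 7149 in CD1d-KO, against 5110, 6397, 6078 and 5634 in WT. CD1d-KO 1 lay below WT 2, and the other CD1d-KO samples were above all WT samples. The log2 fold change of Idh1 was 0.32 ± 0.10 (SE; adjusted p = 0.0452, DESeq2), and the call was lost in 6 of the 8 fits that left out 1 sample (up to 0.173 without WT 1) and in edgeR (0.118). Pgd, of the pentose phosphate pathway, was at 0.914-fold and not called (DESeq2 adjusted p = 0.173).

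The 5 further genes of the mitochondrial folate pathway (median 0.07) and the 10 of mitochondrial peroxide and thiol defence (median 0.01) held 0 called genes, with 0 and 3 at an unadjusted p under 0.05 in DESeq2. Slc25a32, the mitochondrial folate carrier, was at 1.11-fold (DESeq2 adjusted p = 0.581) and Aldh1l2, the mitochondrial formyltetrahydrofolate dehydrogenase that makes NADPH, at 1.14-fold (adjusted p = 0.884). Msrb2, a mitochondrial methionine sulfoxide reductase, was at 1.69-fold (adjusted p = 0.102) and Gpx1, a glutathione peroxidase, at 0.855-fold (adjusted p = 0.103). These 4 genes did not pass the test across all genes, although without CD1d-KO 4 Msrb2 (log2 fold change 0.92, adjusted p = 0.0258) and Gpx1 (-0.29, adjusted p = 0.00629) did.

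The list for the cytosolic thioredoxin and glutathione system also takes in Cat, Sod1, Nqo1 and Hmox1, which belong to neither. Of the 18 listed genes 2 were called (11.1%), both higher, with a median of 0.01. Cat, the peroxisomal catalase, had 6798, 7697, 7970 and 7741 normalised counts in CD1d-KO, against 5254, 6296, 5987 and 5750 in WT, without overlap. It rose by 0.38 ± 0.08 on the log2 scale (SE; adjusted p = 0.000113, DESeq2). Gclm, the modifier subunit of the enzyme that starts glutathione synthesis, rose from 1366 ± 138 in WT to 1655 ± 35.4 in CD1d-KO (SD, n = 4; 0.28 ± 0.08; adjusted p = 0.0241). Its call was lost in 6 of the 8 fits that left out 1 sample (up to 0.125 without CD1d-KO 2) and in edgeR (0.08).

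Of 18 genes of the citric acid cycle 2 were called (11.1%), and 13 of the 18 were above 0, with a median of 0.07. Both called genes encode succinyl-CoA ligase subunits. Suclg2, the GTP-forming subunit, rose from 5364 ± 88.2 to 6370 ± 484 (SD, n = 4; log2 fold change 0.25 ± 0.07, SE; adjusted p = 0.00713, DESeq2). Sucla2, the ATP-forming subunit, rose from 4893 ± 159 to 5675 ± 382 (0.21 ± 0.06; adjusted p = 0.0298). Without overlap between genotypes in either gene, the call was still lost in edgeR (0.0738 and 0.125), and for Sucla2 in 6 of the 8 fits that left out 1 sample (up to 0.161 without CD1d-KO 2) and for Suclg2 in 1 (0.0503 without WT 3).

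The NAD supply and mitochondrial NAD use list held 1 called gene of 11, which was lower, with a median of -0.08. Nmrk1, a kinase that makes NAD precursors from nicotinamide riboside, had 205.6, 192.4, 206.3 and 169.9 normalised counts in CD1d-KO, against 249.4, 279.8, 268.5 and 269 in WT. The genotypes did not overlap, and Nmrk1 fell by 0.46 on the log2 scale (SE 0.12; DESeq2 adjusted p = 0.00554), with the call lost without WT 2 (0.0659) and in edgeR (0.0676). Slc25a51, the mitochondrial NAD carrier, was at 1.08-fold (adjusted p = 0.408).

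The mitochondrial mass list held 1 called gene of 10 (10%), with a median of 0.06. Ppargc1b, a coactivator of mitochondrial genes, had 3063, 2999, 2829 and 3012 normalised counts in CD1d-KO, against 3308, 3458, 3632 and 4254 in WT. It was lower in every CD1d-KO sample (log2 fold change -0.30 ± 0.08, SE; adjusted p = 0.0147, DESeq2), and the call was lost without CD1d-KO 2 (0.0635) and in edgeR (0.0586). Hspa9, the mitochondrial chaperone, was at 1.16-fold (adjusted p = 0.123, and 0.0205 without CD1d-KO 4). Of the 7 called genes, Gclm, Sucla2, Nmrk1 and Ppargc1b were not called without the samples that carry Y-linked counts, where their log2 fold changes were 0.29, 0.25, -0.50 and -0.33, no smaller in size than over all samples. With the level of the stomach markers as a covariate 1 gene of the lists was called, and none of these 7. Their log2 fold changes were then 0.34 ± 0.20 (SE) for Idh1, 0.44 ± 0.15 for Cat, 0.28 ± 0.17 for Gclm, 0.14 ± 0.13 for Suclg2, 0.19 ± 0.14 for Sucla2, -0.62 ± 0.26 for Nmrk1 and -0.15 ± 0.16 for Ppargc1b. The SEs were larger than over genotype alone for all 7, and the values of Suclg2, Sucla2 and Ppargc1b moved towards 0. Because the stomach markers separated the genotypes completely, this fit cannot divide a difference between stomach content and genotype.

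**Figure D5:**
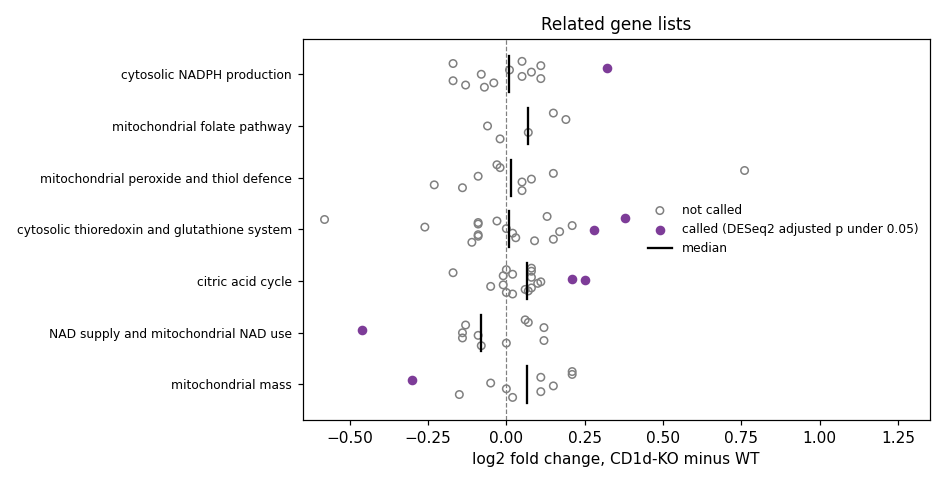
Log2 fold change (CD1d-KO minus WT, horizontal axis) of each tested gene of 7 related lists, with purple points for called genes, open points for the others and a black line at the list's median. The medians lie between -0.08 and 0.07, and 7 of 85 genes were called.

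The genes whose profile over the 8 samples was closest to that of Nnt were found by the root mean square (RMS) difference between centred log2 profiles, where 0 means the same profile. Over 11720 genes averaging at least 50 normalised counts the median RMS difference was 0.69. The closest were Epdr1 (0.18), which encodes an ependymin-related protein, Cyp2e1 (0.23), a cytochrome P450 that oxidises ethanol, Rgs7bp (0.24), a partner of G-protein regulators, Mylk3 (0.25), a myosin light chain kinase known from heart, and Timp3 (0.27), an inhibitor of matrix metalloproteinases. All 5 were higher in CD1d-KO without overlap, which the measure favours, and their log2 fold changes of 0.93 to 1.21 were below that of Nnt. Epdr1 and Rgs7bp lie on chromosome 13 as Nnt does, but outside the 5 Mb around it. Epdr1, the closest, had 116.2, 123.8, 110.5 and 87.37 normalised counts in CD1d-KO, against 51.05, 52.4, 44.6 and 55.01 in WT. Their counts were far lower than those of Nnt and spread more within a genotype.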

How the data were processed

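Sorted IECs of 4 CD1d-KO and 4 WT samples were profiled by bulk RNA-seq (KAPA mRNA kit). The authors deposited raw fragment counts per gene, with gene lengths, made per the file headers with featureCounts 1.6.4 on read pairs, primary alignments only, strand not used, from an mm10 gene annotation. The study's methods name HISAT2 and GRCm39, so the build of the alignment is uncertain. Counts would be affected if reads aligned to one build were counted with coordinates of the other. Coordinates here are those of the deposited table. Per-sample columns not used numbered 0.

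Genotypes were compared by DESeq2 1.42.0 (R 4.3.3) with genotype as the only term, Cook's rule and independent filtering, and Benjamini-Hochberg adjustment over 15446 genes. An adjusted p under 0.05 was called. TPM was computed from counts and table lengths, with no pseudocount, and profiles used log2(normalised count + 1). Copies were searched with BLAST of GENCODE transcripts on GRCm39. Replicates differed beyond sampling noise (chi-square per degree of freedom 9.73 to 37.2), so no library was counted as a copy. Counting error is largest for Me3 among the members, and intervals do not cover PCR copies, as no molecular identifiers are named in the sources.

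The members and gene lists were chosen with earlier results of these data known. Named genes were all members, in each list every called gene up to 4 and otherwise the genes of largest test statistic up to 2, the 2 nearest tested genes on each side of Nnt and any called gene within 5 Mb, and the 5 genes closest to Nnt in profile. Marker lists for 6 tissues or cell types were summed per sample. Alternatives were edgeR 4.0.16, TMM factors, a filter of 10 counts in 4 samples, DESeq2 without its filters, a replicate block, leaving out each sample, leaving out samples with Y-linked counts, the stomach markers as a covariate, and TPM without the 50 most abundant genes. Scripts were tested on simulated data.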

Additional observations from a re-analysis of the deposited data

Results flagged for a closer look

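Prdx3 had 3772 normalised counts in CD1d-KO 3, where the other CD1d-KO samples had 3481 to 3513, a gap of 0.891 of the group's range. Hspa9 had 21843 in WT 4, where the other WT samples had 19419 to 19795, a gap of 0.845 of the range. There were 68 groups of 4 samples examined and 2 showed such a gap, which chance alone gives in about 1 of 20.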

How the results depend on the processing

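The Nnt log2 fold change lay between 1.25 and 1.38 over 14 alternatives and moved by more than the within-genotype SD of 0.07 in 2 of them, at 1.28 without the samples with Y-linked counts and 1.25 with the stomach covariate. With a replicate block it was 1.36. Deviations of same-numbered samples correlated weakly (0.285, 0.025, 0.221 and 0.004 for CD1d-KO 1 to 4). CD1d-KO 1 and CD1d-KO 3 were closest to the WT sample of their own number, and CD1d-KO 2 and CD1d-KO 4 were not. Whether replicate numbers pair the samples is therefore not settled. The block lost the call of Nmrk1 (DESeq2 adjusted p = 0.097), gained that of Gpx1 (0.00719), and gave 569 called genes in all against 622. Called members besides Nnt numbered 0 to 1 when 1 sample was left out (Me2 without CD1d-KO 1, Gsr without CD1d-KO 3) and 0 otherwise. Tmem267 lost its call with the stomach covariate alone, leaving 0 called neighbours. Called genes of the related lists numbered 1 in edgeR, 4 without the samples with Y-linked counts, 1 with the stomach covariate and 3 to 9 when 1 sample was left out (3 without CD1d-KO 2, 4 without WT 1, WT 3 or WT 4), against 7. Of the closest profiles Mylk3 kept its call throughout, Epdr1, Cyp2e1 and Timp3 lost it with the stomach covariate and Rgs7bp also without the samples with Y-linked counts.

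Directions turned for Mthfd2 (-0.06 to 0.05), Txnrd2 (-0.02 to 0.06) and Aldh1l2 (-0.11 to 0.37) when 1 sample was left out. They also turned for Txnrd2 (-0.14), 4833420G17Rik (-0.27) and Gpx1 (0.02) with the stomach covariate, and for Txn2 (0.01) and 4833420G17Rik (-0.12) without the samples with Y-linked counts. The cause was not tested. All genes called numbered 299 in edgeR, 372 without the samples with Y-linked counts, 89 with the stomach covariate and 323 to 646 when 1 sample was left out. TPM without the 50 most abundant genes was 1.12 to 1.13 times higher, with 0 changes of order. Counting error reached 17.1% of the lowest raw count in Me3, the member with the fewest counts.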
